A study of Mus musculus with 5 samples.

Results

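The matrix metalloproteinases (MMPs), the ADAMTS proteinases, their tissue inhibitors (TIMPs) and the serine protease Htra1 were followed in jaw-joint cartilage, taken from the mandibular condyle, of mice that lack discoidin domain receptor 1. The members were a list of 42 gene symbols, and a gene was measured where a row of the array table carried that symbol and no other. By this rule 41 of the 42 genes were found among the 19938 genes tested, and Mmp15 was not analysed here. Where a gene had several rows, its brightest one by the mean of all arrays was tested. The groups were Ddr1 knockout mice (n = 2, called knockout 2 and knockout 5 after their labels) and wild-type mice (n = 3, called wild type 3, 4 and 6). All 5 mice were of the 129/Sv strain, and RNA was taken straight from the condylar cartilage. The sources used here give neither the age of the mice nor the design of the knockout allele, and each array is a mouse of its own by its label. Values are log2 RMA signals of a whole-transcript array, on which a step of 1 is a factor of 2, and a change is knockout minus wild type on that scale.

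These enzymes and inhibitors decide how fast cartilage matrix is taken apart. MMPs and ADAMTS proteinases are zinc enzymes made as inactive precursors. Collagenases cut the collagen triple helix, gelatinases and stromelysins act on the fragments and on other matrix proteins, and aggrecanases of the ADAMTS family cut aggrecan, the proteoglycan that lets cartilage bear load. TIMPs bind the active site of these enzymes and block it. Ddr1 is a kinase of the cell surface that senses collagen, and in osteoarthritis, the disease for which its mutant mice are known in the jaw joint, these proteases erode the cartilage.

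The comparison asked which transcripts differ in condylar cartilage when the receptor is missing. Ddr1 itself was at 5.96 and 5.80 in knockouts 2 and 5, against 6.02 in all 3 wild-type mice. Its change of -0.14 did not pass the test (SE 0.058, limma's adjusted p = 0.377) and was 0.011 to 0.068 under 3 of 4 scalings between arrays. Which part of the gene was deleted is not stated, so the signal of Ddr1 does not check the labels. Knockout 2 stood apart: across genes its values correlated at 0.814 to 0.837 with the wild-type arrays and at 0.803 with knockout 5, where knockout 5 correlated at 0.903 to 0.927 with wild type and wild-type arrays at 0.984 to 0.993 with each other. Of the 12 chondrocyte markers, 9 had a mean signal above 5.20, the 90th percentile of 1194 olfactory and vomeronasal receptor genes, which cartilage is not known to use. Of the 41 members 27 did. The other 14 were Mmp3, Mmp8, Mmp9, Mmp10, Mmp16, Mmp19, Mmp21, Adamts1, Adamts5, Adamts6, Adamts15, Timp1, Timp3 and Timp4, whose signal cannot be told from that of such genes. The receptor genes were themselves mostly higher in knockout, 1038 of 1194 with a median change of 0.40, and their part in the values of the dim members was not tested. The array summary often returned exactly the same value for several arrays. All 3 wild-type mice shared 1 value in 17 of the 41 members, or 41.5%, and in 39.1% of all genes, so for these genes the spread in wild type is not a spread between mice.

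Among the 41 members, 1 gene fell in knockout cartilage, 0 rose and 40 did not pass the test at adjusted p under 0.05 (limma, 2 knockout against 3 wild-type arrays). Over all genes 3.73% passed, 2.18% lower and 1.55% higher, so that the single fall is close to the background share. At an unadjusted p under 0.05 there were 11 members, 8 lower and 3 higher, where all genes gave 18.2%, of which 10.9% lower and 7.29% higher. The number of members past the adjusted threshold depended on single arrays: without knockout 2 it was 17 members, without knockout 5 it was 25, and without any 1 wild-type array it was 0. With 1 knockout array the test takes its spread from wild type. Signals leaned to lower values: the change was below 0 in 29 members, above 0 in 10 and exactly 0 in Mmp2 and Adamts6. Under the 4 scalings 24 or 25 members were below 0, and 7 of the 39 members with a difference turned sign under at least 1 of them. Their median change was -0.14, against -0.0083 over all genes, and it was -0.24 within array run 1 (knockout 2 and wild type 3) and -0.011 within array run 2 (knockout 5 and wild type 4 and 6). Under the 4 scalings the members' median was -0.090 to -0.046, while that of all genes was 0.0097 to 0.064. Much of the same leaning was seen in all genes of like signal, since among the 9373 genes above the level of the receptor genes 69.9% were lower and the median was -0.14, and among the 27 members above that level 81.5% were lower and the median was -0.15. The SD of the signals over all genes was 0.80 and 0.91 in knockouts 2 and 5, against 0.99 to 1.02 in wild type. The part of this narrower spread in the leaning was not tested. The leaning was also mainly that of 1 mouse. Knockout 2 lay below every wild-type array in 29 members, or 70.7% against 41.4% of all genes. Knockout 5 did so in 18 members, or 43.9% against 31.2%. Of all genes above the level of the receptor genes, 59.7% had knockout 2 and 42.8% had knockout 5 below every wild-type array. For the 27 members above that level the shares were 77.8% and 55.6%. Both knockout arrays lay below all wild-type arrays in 15 members (background 18.6% of all genes) and above all of them in 3 (background 13.0%), together 18 members where all genes gave 31.5%. Among genes above the level of the receptor genes, 30.3% had both knockout arrays below and 4.51% had both above.

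**Figure D1:**
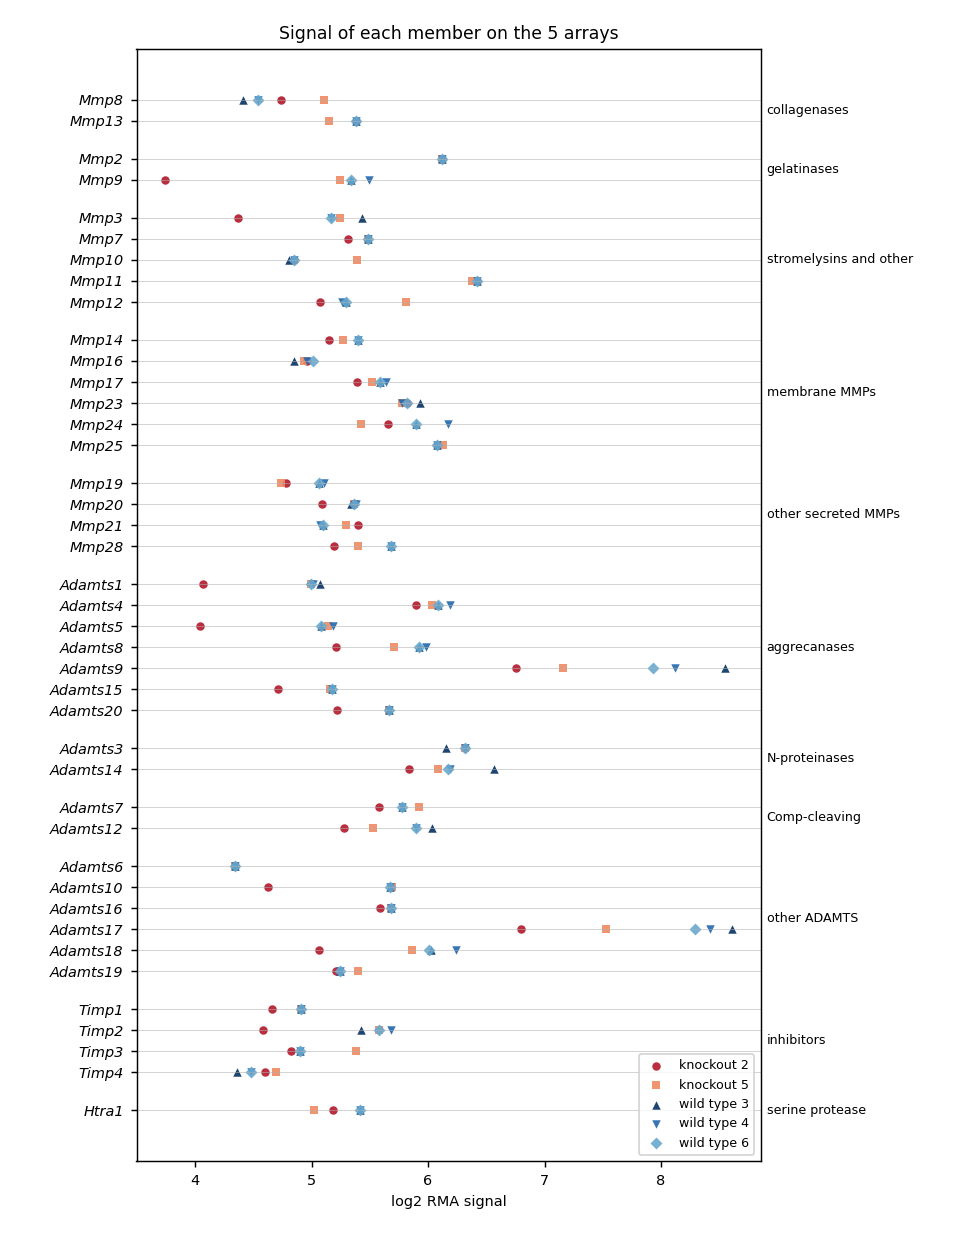
Log2 RMA signal (x axis) of the 41 measured members (rows, grouped by class) on the arrays of knockout 2 and 5 and wild type 3, 4 and 6. Identical values lie on top of each other. Knockout 2 is the single lowest point in 26 rows, and Mmp19 is the row in which both knockout points lie together below wild type with the call past the threshold.

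Mmp19, a secreted MMP that cuts basement membrane and cartilage matrix proteins, was the gene that fell. It was at 4.78 and 4.74 in knockouts 2 and 5, against 5.07, 5.10 and 5.07 in wild type 3, 4 and 6. Both knockout mice were below every wild-type mouse, and the mice of each group lay close together. The change was -0.32 (SE 0.026, 95% interval -0.39 to -0.24, adjusted p = 0.0276), a fold of 0.802. It was -0.28 within run 1 and -0.35 within run 2, and with run as a block it had adjusted p = 0.077. Its direction held under all 4 scalings, with changes from -0.29 to -0.25, but it passed under none of them (adjusted p = 0.109 to 0.146). Leaving out wild type 3, 4 or 6 gave adjusted p = 0.145, 0.169 and 0.202. The mean signal of Mmp19 over the 5 arrays, 4.95, was under the level of the receptor genes, and 2 of its wild-type values were identical.

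The other secreted MMPs of that class went different ways. Mmp28, an MMP of skin and of healing tissue, was at 5.19 and 5.40 in knockouts 2 and 5, against 5.68 in all 3 wild-type mice, with a change of -0.39 (SE 0.072, adjusted p = 0.0951). Mmp21, known for its part in left-right body asymmetry, was at 5.40 and 5.29 in the knockout mice, against 5.10, 5.07 and 5.10 in wild type, a change of 0.26 (SE 0.040, adjusted p = 0.070). Both knockout values were outside the wild-type range in these genes, below it for Mmp28 and above it for Mmp21, and neither gene passed the test. Mmp20, the enamel protease of teeth, was at 5.09 and 5.36 in knockout mice, against 5.34 to 5.38 in wild type, so that knockout 5 lay within the wild-type values.

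The 2 collagenases of the list did not pass and had opposite signs. Mmp13, the collagenase that cuts type II collagen and marks hypertrophic chondrocytes, was at 5.38 and 5.15 in knockouts 2 and 5, against 5.38 in all 3 wild-type mice. Knockout 2 thus had the wild-type value, and the whole change of -0.11 (SE 0.078, 95% interval -0.34 to 0.11, adjusted p = 0.399) came from knockout 5. It was -0.041 to 0.0013 under the scalings, with the value above 0 under quantile normalisation. Mmp8, the collagenase stored in neutrophils, was at 4.74 and 5.11 in the knockout mice, against 4.41, 4.54 and 4.54 in wild type. Both knockout values were above the wild-type ones, with a change of 0.43 (SE 0.135, adjusted p = 0.24), at signals under the level of the receptor genes. The mean signal of 9 neutrophil markers was 5.35 and 5.51 in knockouts 2 and 5, against 5.38 to 5.42 in wild type. Of these markers 6 were higher and 3 lower, with none past the threshold. Of the 9 markers 7 had a mean signal above the level of the receptor genes, and the part of the markers in the values of Mmp8 was not tested.

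Gelatinases take apart denatured collagen and type IV collagen. Mmp9, the gelatinase of neutrophils and osteoclasts, was at 3.74 and 5.24 in knockouts 2 and 5, against 5.34, 5.50 and 5.34 in wild type. Both knockout values were below wild type, but they lay 1.5 apart, and the change of -0.90 did not pass (SE 0.511, 95% interval -2.37 to 0.58, adjusted p = 0.399). Mmp2, the gelatinase of connective tissue cells, read 6.12 on every array. Identical values in a deposited summary do not show that the gene was equally expressed. The 8 osteoclast markers averaged 4.90 and 5.13 in knockouts 2 and 5, against 5.07 to 5.12 in wild type, so that their mean was lower in knockout 2. In knockout 2, 5 of them were below the wild-type range and 3 above it. Among those above was Ctsk, with a change of 0.62 (adjusted p = 0.171). Among those below were Itgb3 and Acp5, with changes of -0.41 and -0.56 (limma's adjusted p = 0.0725 and 0.264). In these genes both knockout arrays were below wild type. Only 4 of the 8 had a mean signal above the level of the receptor genes, among them Itgb3 and Acp5 but not Ctsk. Of the 8 markers 5 were lower and 3 higher, none passed, and their part in the values of Mmp9 was not tested. In whole tissue, fewer cells of a type and less RNA per cell cannot be told apart.

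Stromelysins cut proteoglycans and activate collagenases, and none of the 5 genes of their class passed. Mmp3, the stromelysin of inflamed joints, was at 4.37 and 5.25 in knockouts 2 and 5, against 5.44, 5.16 and 5.16 in wild type, with a change of -0.45 (SE 0.316, adjusted p = 0.4). Knockout 2 was below wild type and knockout 5 inside its range. Mmp10, the second stromelysin, was at 4.85 and 5.39, against 4.81, 4.85 and 4.85 in wild type, and the macrophage elastase Mmp12 was at 5.07 and 5.81, against 5.29, 5.26 and 5.29. In both genes knockout 5 was above wild type, and in Mmp12 knockout 2 was below it. Their changes were 0.28 and 0.16 (adjusted p = 0.399 and 0.683). The 8 macrophage markers averaged 4.95 and 5.05 in knockouts 2 and 5, against 4.83 to 4.88 in wild type. Only 3 of the 8 had a mean signal above the level of the receptor genes. Of the markers 5 were higher, 1 lower and 2 had 1 value on all arrays. None passed, and their part was not tested. Mmp7, the matrilysin of epithelia, and Mmp11, an MMP of remodelling stroma, had changes of -0.085 and -0.021, which turned to above 0 under 3 and 4 of the 4 scalings.

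Of these genes 7 share a place in the genome as well as a fold. In the GRCm38.p6 gene table Mmp13, Mmp12, Mmp3, Mmp10, Mmp8, Mmp20 and Mmp7 stand next to each other on chromosome 9, with Mmp1b, Mmp1a and Mmp27 between them. Of the 10 neighbours 5 had changes below 0 and 5 above, the median was -0.028, and none passed the test (lowest adjusted p = 0.24). Knockout 5 was above all wild-type arrays in 4 of them (Mmp12, Mmp1b, Mmp10 and Mmp8) and below in 2 (Mmp13 and Mmp27), while knockout 2 was above in 2 and below in 4 (Mmp12, Mmp3, Mmp20 and Mmp7). Neighbouring genes of the cluster thus lay on opposite sides of wild type within 1 mouse, but many of these signals were dim. Mmp1b, Mmp3, Mmp1a, Mmp10, Mmp8 and Mmp27 had mean signals under the level of the receptor genes. Mmp1b read only 2.52 to 3.28 over the arrays.

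**Figure D2:**
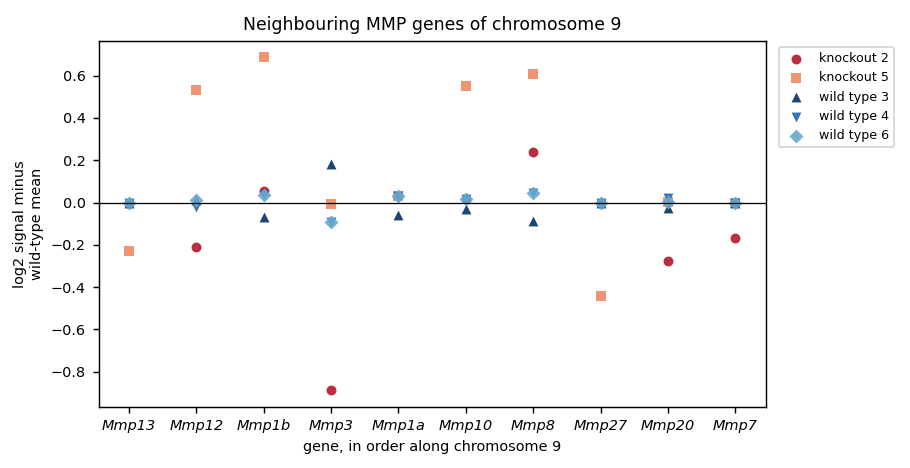
Log2 signal minus the wild-type mean (y axis) of the 10 neighbouring MMP genes of chromosome 9 (x axis, in gene order) on each of the 5 arrays. Knockout 2 is lowest at Mmp3 and knockout 5 is highest at Mmp1b, and the wild-type points lie near 0. The mean signals of Mmp3 and Mmp1b were under the level of the receptor genes.

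The promoters of this cluster share letters that the rule did not use. Of these promoters 4 are printed, from genes whose changes differed in sign, though none of those changes passed the test. RefSeq promoter windows of GRCm38.p6, from 250 bases before to 50 after the transcription start, were found for 28 of the 42 members, among them Mmp15. The letters TGANTCA, to which the Fos and Jun dimer AP-1 binds and which read alike on both strands, stood in windows of 6 of the 7 members of the cluster that had one (Mmp13, Mmp12, Mmp3, Mmp10, Mmp20 and Mmp7) and in 0 of the other 21 members. They were in 7.81% of all 32851 windows and, counted by gene as for the members, in 8.97% of 27025 genes. TATAAA on the gene's strand stood in the same 6 genes and in 2 of the other 21 (Adamts1 and Mmp21). It was in 8.32% of all windows and in 9.77% of all genes. The motifs did not overlap in the windows below, where capitals mark both.
Mmp13 (chr9:7272264-7272563, + strand): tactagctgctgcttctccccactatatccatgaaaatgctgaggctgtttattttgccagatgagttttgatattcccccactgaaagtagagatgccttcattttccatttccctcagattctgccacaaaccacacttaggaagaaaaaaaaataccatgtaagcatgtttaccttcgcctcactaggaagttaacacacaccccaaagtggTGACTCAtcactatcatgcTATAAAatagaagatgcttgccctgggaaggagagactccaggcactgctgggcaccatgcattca
Mmp3 (chr9:7445572-7445871, + strand): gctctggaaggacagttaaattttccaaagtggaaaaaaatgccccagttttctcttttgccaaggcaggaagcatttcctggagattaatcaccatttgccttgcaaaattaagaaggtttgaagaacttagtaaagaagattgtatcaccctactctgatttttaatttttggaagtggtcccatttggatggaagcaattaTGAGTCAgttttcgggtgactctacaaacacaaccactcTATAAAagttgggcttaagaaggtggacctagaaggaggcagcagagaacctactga
Mmp10 (chr9:7502092-7502391, + strand): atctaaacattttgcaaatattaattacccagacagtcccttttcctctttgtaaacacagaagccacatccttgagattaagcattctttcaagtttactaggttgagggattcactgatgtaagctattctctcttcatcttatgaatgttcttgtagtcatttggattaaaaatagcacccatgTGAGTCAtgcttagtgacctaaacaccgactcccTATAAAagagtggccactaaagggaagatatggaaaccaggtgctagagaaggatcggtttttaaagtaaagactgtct
Mmp8 (chr9:7558179-7558478, + strand): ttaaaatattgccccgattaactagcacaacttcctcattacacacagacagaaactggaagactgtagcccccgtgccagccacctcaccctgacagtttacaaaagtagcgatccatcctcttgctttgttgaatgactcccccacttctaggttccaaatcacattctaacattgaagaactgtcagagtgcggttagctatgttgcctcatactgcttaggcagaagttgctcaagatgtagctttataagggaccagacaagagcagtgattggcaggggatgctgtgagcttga
Mmp13 and Mmp3 hold both motifs and had changes below 0, and Mmp10 holds both and had a change above 0. Mmp8, with the largest change above 0 of the cluster among members, holds neither in this window. These signs are not firm, since the change of Mmp13 was 0.0013 under quantile normalisation and that of Mmp3 was 0.084 within run 2. A match of letters is a description, and no binding was measured here.

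Membrane MMPs sit on the cell surface, where Mmp14 activates the precursor of Mmp2 and cuts collagen around the cell. Mmp14 was at 5.15 and 5.27 in knockouts 2 and 5, against 5.40 in all 3 wild-type mice, with a change of -0.19 (SE 0.045, adjusted p = 0.147). Mmp24 was at 5.66 and 5.43 in the knockout mice, against 5.90, 6.17 and 5.90 in wild type, a change of -0.45 (SE 0.133, adjusted p = 0.216). Mmp17, which is held by a lipid anchor, was at 5.39 and 5.52, against 5.58, 5.64 and 5.58, a change of -0.14 (SE 0.05, adjusted p = 0.275). In these 3 of the 6 measured membrane MMPs both knockout values were below all wild-type values, as in 18.6% of all genes and 30.3% of those above the level of the receptor genes, and none passed the test. Mmp16, Mmp23 and the leukocyte enzyme Mmp25 had changes from -0.044 to 0.027 with knockout values in or next to the wild-type range, and Mmp23 was above 0 under all 4 scalings. The class median was -0.095, and it was -0.022 to 0.021 under the 4 scalings, above 0 in 3 of them.

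The 7 aggrecanases and related proteoglycanases all had changes below 0, with a median of -0.49, and 0 of 7 passed the test. Under the 4 scalings 6 or 7 of them were below 0, with medians from -0.41 to -0.34. Adamts5, the main aggrecanase of mouse cartilage, was at 4.04 and 5.14 in knockouts 2 and 5, against 5.08, 5.18 and 5.08 in wild type. Knockout 2 was about 1 log2 unit below the others and knockout 5 lay within the wild-type range, which gave a change of -0.52 with a wide interval (SE 0.374, 95% interval -1.60 to 0.56, adjusted p = 0.402). Adamts1, which stands next to Adamts5 on chromosome 16 and also cuts aggrecan and versican, had the same pattern. It was at 4.07 and 4.99 in knockouts 2 and 5, against 5.07, 5.01 and 4.99 in wild type, a change of -0.50 (SE 0.315, adjusted p = 0.399). Adamts4, the aggrecanase induced by inflammatory cytokines, was at 5.90 and 6.03 in the knockout mice, against 6.09, 6.19 and 6.09 in wild type. Its change of -0.15 (SE 0.061, adjusted p = 0.339) was above 0 under 2 of the 4 scalings.

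Another neighbouring pair on chromosome 9, Adamts8 and Adamts15, also cut proteoglycans. Adamts8 was at 5.21 and 5.71 in knockouts 2 and 5, against 5.93, 5.98 and 5.93 in wild type, a change of -0.49 (SE 0.169, adjusted p = 0.274). Adamts15 was at 4.71 and 5.16, against 5.18 in all 3 wild-type mice, a change of -0.24 (SE 0.154, adjusted p = 0.399). Both knockout values were below wild type in the pair, but for Adamts15 knockout 5 was lower by 0.015 only. Adamts20, a versican-cutting protease known from coat colour in mice, had a change of -0.22, set by knockout 2 alone, since knockout 5 had the wild-type value of 5.66. Averaged over the 7 genes the signal was 5.13 and 5.69 in knockouts 2 and 5, against 5.84 to 5.94 in wild type. For knockout 5 the lower mean came mostly from 1 row of Adamts9, which differed from the wild-type mean by -1.04. The other genes of the class differed by -0.24 to 0.029 in knockout 5. The median change of the class was -0.71 within run 1 and -0.015 within run 2.

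**Figure D3:**
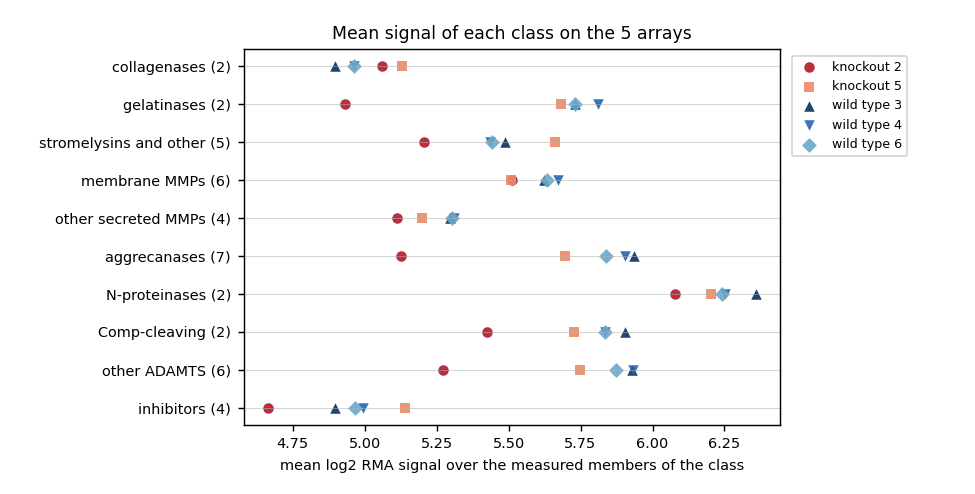
Mean log2 RMA signal (x axis) over the measured members of each class (rows, number of genes in brackets) on the 5 arrays. For the aggrecanases knockout 2 is at 5.13 and knockout 5 at 5.69, left of the wild-type arrays, for knockout 5 mostly through 1 row of Adamts9. For the inhibitors the knockout arrays lie on either side of wild type.

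Adamts9, a proteoglycanase that is also needed for cilia and vessels, had the largest change of the class, in 1 of its 6 rows. In that row it was at 6.75 and 7.16 in knockouts 2 and 5, against 8.55, 8.12 and 7.93 in wild type, a change of -1.25 (SE 0.255, 95% interval -1.98 to -0.51, adjusted p = 0.112). All wild-type mice were above both knockout mice by a wide margin. The other 5 rows had changes from -0.50 to -0.14, all below 0, and with the rows averaged the change was -0.44 (adjusted p = 0.16). Adamts17, linked in humans to short stature and eye disease, showed the same in 1 of its 5 rows, with 6.79 and 7.52 in knockout, against 8.61, 8.42 and 8.30 in wild type. The change in that row was -1.28 (SE 0.269, adjusted p = 0.117), the other 4 rows had -0.25 to 0.19, and the averaged rows gave -0.33 (adjusted p = 0.235). In both genes the row with the highest mean was the row with the largest change.

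**Figure D4:**
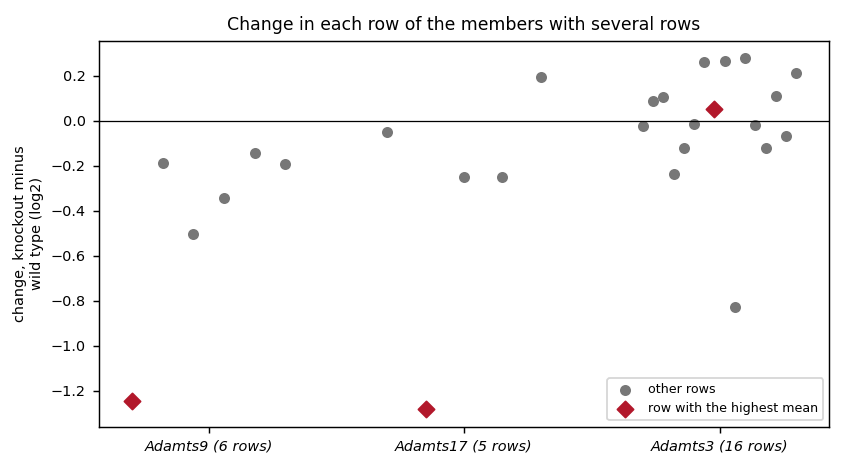
Change, knockout minus wild type, on the log2 scale (y axis) in each row of the array table for Adamts9 (6 rows), Adamts17 (5 rows) and Adamts3 (16 rows). Diamonds mark the row with the highest mean, which was tested; in Adamts9 and Adamts17 it lies at -1.25 and -1.28, apart from the other rows.

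The procollagen N-proteinases, which trim the amino end of fibrillar procollagens, were measured as Adamts3 and Adamts14. Adamts3 was spread over 16 rows, of which 8 had changes below 0 and 8 above, from -0.83 to 0.28. Its tested row was at 6.32 in both knockout mice, against 6.15, 6.32 and 6.32 in wild type. Adamts14 was at 5.84 and 6.09 in knockouts 2 and 5, against 6.57, 6.19 and 6.17, with a change of -0.34 (SE 0.174, adjusted p = 0.399). Of the proteases that cut cartilage oligomeric matrix protein (Comp), Adamts12 was at 5.28 and 5.53 in the knockout mice, against 6.03, 5.89 and 5.89 in wild type. Both knockout values were below wild type, with a change of -0.54 (SE 0.103, 95% interval -0.83 to -0.24, adjusted p = 0.10). Adamts7 was at 5.57 and 5.92, against 5.78 in all 3 wild-type mice, so that the knockout mice lay on either side, and its change of -0.027 was above 0 under all 4 scalings.

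The remaining ADAMTS genes gave 4 changes below 0, 1 above and 1 of 0 (Adamts6). Adamts18 was at 5.07 and 5.86 in knockouts 2 and 5, against 6.02, 6.24 and 6.01 in wild type, a change of -0.62 (SE 0.283, adjusted p = 0.399). Adamts10, which acts on fibrillin microfibrils, was at 4.62 and 5.69 in knockouts 2 and 5, against 5.68 in all 3 wild-type mice, so the change of -0.52 (adjusted p = 0.399) came from knockout 2. Adamts16 and Adamts19 differed by -0.047 and 0.064, and Adamts16 was above 0 under all 4 scalings. Over all 17 measured ADAMTS genes knockout 2 was the single lowest array in 15, or 88.2%, and knockout 5 in 0, while over all genes these shares were 34.8% and 19.2%. Knockout 2 was lowest in 49.1% of all genes above the level of the receptor genes, where 13 of the 17 lie. It was lowest in 91.7% of the chondrocyte markers and in 73.9% of the substrate genes, lists that share genes such as Acan, Col2a1 and Comp. The median of the 17 was -0.34, with -0.71 within run 1 and -0.010 within run 2.

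The 4 inhibitors gave 2 changes below 0 and 2 above, with a median of 0.039, and 0 of 4 passed. Timp1, the inhibitor induced in inflammation, was at 4.66 and 4.91 in knockouts 2 and 5, against 4.91 in all 3 wild-type mice, with a change of -0.13 (SE 0.087, adjusted p = 0.399). Timp2, which also takes part in activating Mmp2, was at 4.58 and 5.58, against 5.42, 5.68 and 5.58, a change of -0.48 (SE 0.349, adjusted p = 0.403). In both genes knockout 2 was below wild type and knockout 5 was at a wild-type value. Timp3, the inhibitor that is bound to the matrix and blocks aggrecanases, was at 4.82 and 5.38 in knockouts 2 and 5, against 4.90 in all 3 wild-type mice, a change of 0.20 (SE 0.189, 95% interval -0.34 to 0.75, adjusted p = 0.494). The knockout mice lay on opposite sides of wild type in Timp3. Timp4 was at 4.60 and 4.70, against 4.36, 4.48 and 4.48, with both knockout values above wild type and a change of 0.21 (SE 0.061, adjusted p = 0.213). The class mean was 4.66 and 5.14 in knockouts 2 and 5, against 4.90 to 4.99 in wild type.

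Htra1, a secreted serine protease that cuts fibronectin and proteoglycans and is raised in arthritic cartilage, was at 5.18 and 5.02 in knockouts 2 and 5, against 5.42 in all 3 wild-type mice. Both knockout values were below wild type, with a change of -0.32 (SE 0.057, 95% interval -0.48 to -0.15, adjusted p = 0.0886) that did not pass. It was -0.24 within run 1 and -0.40 within run 2. The wild-type values were identical, so the SE rests on the knockout mice and on limma's moderation.

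**Figure D5:**
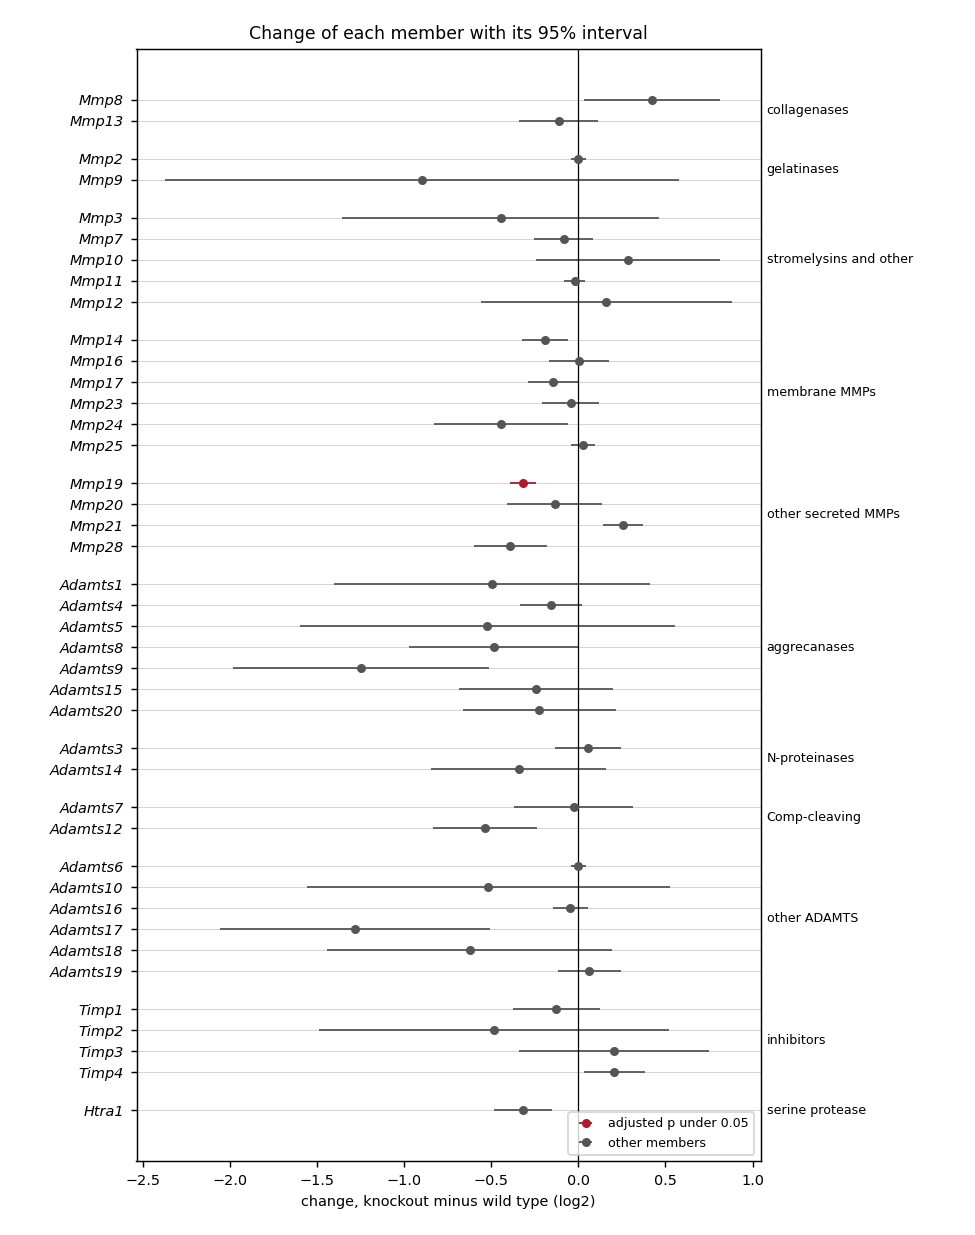
Change, knockout minus wild type, on the log2 scale (x axis) of the 41 measured members (rows, grouped by class), with bars for limma's 95% interval, not adjusted for multiple tests. Mmp19, at -0.32, is the coloured point with adjusted p under 0.05, and the intervals of Mmp9, Adamts5 and Adamts10 are among those that include 0.

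Among 30 related genes outside the list, mostly proteases but with 6 ADAMTS-like matrix proteins that have no protease domain (Papln and Adamtsl1 to Adamtsl5), 2 fell and 0 rose. Over all genes 2.18% fell and 1.55% rose, which is also the background for the lists of regulators and substrates and for the cell-type markers. Papln (papilin), a matrix protein built on the ADAMTS pattern, was at 6.03 and 6.0 in knockouts 2 and 5, against 6.56, 6.52 and 6.52 in wild type, a change of -0.52 (SE 0.024, adjusted p = 0.0157). Adamts13, the protease of von Willebrand factor, was at 5.27 and 5.31, against 5.76, 5.80 and 5.76, a change of -0.48 (SE 0.026, adjusted p = 0.0174). Both knockout mice were close together and below wild type in these genes. Next in order of p was Htra2, a mitochondrial serine protease, with a change of -0.40 that did not pass (adjusted p = 0.112). The list's median change was -0.039.

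Of 19 measured genes that activate, clear or inhibit these proteases, 1 rose and 0 fell. Tfpi2, an inhibitor of plasmin and other serine proteases in the matrix, was at 6.02 and 5.93 in knockouts 2 and 5, against 5.29 in all 3 wild-type mice, a change of 0.69 (SE 0.035, adjusted p = 0.0161) that was 0.81 to 0.86 under quantile, loess and centred and scaled values. Pcsk7, a proprotein convertase, and Lrp1, the receptor that clears Adamts5 and Mmp13, had changes of -0.50 and -0.34 (adjusted p = 0.277 and 0.378). Of 23 substrates of these proteases, 1 fell and 0 rose, 18 had changes below 0, and the median was -0.23. Comp was at 5.78 and 5.86 in the knockout mice, against 6.27, 6.21 and 6.21 in wild type (-0.41, SE 0.038, adjusted p = 0.0327), and next in order of p came the cartilage collagen gene Col2a1 (-0.26, adjusted p = 0.069) and the matrilin gene Matn4 (-0.45, adjusted p = 0.126). Acan, the aggrecan core protein and a gene chosen after its values were seen, was at 4.81 and 5.92 in the knockout mice, against 5.40 in all 3 wild-type mice, so that they lay on either side. Papln, Adamts13, Tfpi2 and Comp passed neither with run as a block (adjusted p = 0.0517 to 0.0886), nor after cyclic loess, nor with any 1 wild-type array left out.

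Chondrocyte markers, like the aggrecanases, were low mainly in knockout 2. Their median difference from the wild-type mean was -0.47 in knockout 2 and -0.029 in knockout 5. For the aggrecanases it was -0.73 and -0.032. All 12 chondrocyte markers had changes below 0, and 2 of them fell, Comp (above) and Sox9, the master transcription factor of cartilage. Sox9 was at 5.56 and 5.63 in knockouts 2 and 5, against 6.01, 6.02 and 6.01 in wild type (-0.42, SE 0.029, adjusted p = 0.0229). It did not pass with run as a block, after quantile normalisation or cyclic loess, or without any 1 wild-type array, where 0 genes of the whole table passed. Of all genes above the level of the receptor genes, 69.9% had changes below 0. The markers' mean signal was 5.50 and 5.87 in knockouts 2 and 5, against 5.95 to 5.96 in wild type. The mean of the muscle markers was low as well, at 5.65 and 5.70 in knockouts 2 and 5, against 5.84 to 5.96 in wild type. Of these markers 5 of 6 had changes below 0 and none passed, but their median change was only -0.059. The actin gene of skeletal muscle, Acta1, had the lowest p of the list, with a change of -0.84 (adjusted p = 0.0789). Tnnt3 had -0.50, with knockout 5 at a wild-type value. Ckm, Myh1, Myh4 and Mylpf had changes from -0.11 to 0.066. The part of the chondrocyte or muscle share or of the array of knockout 2 in the values of the members was not tested.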

How the data were processed

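Total RNA of 5 mice was run on 1-colour Affymetrix mouse gene 1.0 ST arrays, per the labels' protocols. The deposited values are log2 signals that the authors made with Affymetrix Expression Console and RMA, per the submitters' processing notes; the sources used here give no version or build. The number of arrays limits the precision. Of 35556 rows, 21789 had 1 gene symbol in the platform annotation, and the row with the highest mean stood for each of 19938 genes. The genotypes were tested by limma 3.58.1 under R 4.3.3 (lmFit and eBayes, two-sided, Benjamini-Hochberg over all genes, threshold 0.05). P-values measure the spread between these arrays. Array run is the date in the array names. The fit was tested on simulated data. Members, classes and lists were chosen with earlier results of these data known. By rule, values on every array were given for members past the threshold and the member of lowest p in each class. The same held for 15 members of known role in cartilage or bone. Other lists were to be given by genes past the threshold and the 3 of lowest p. This was done for related genes, regulators and substrates. It was not kept for cell-type markers, which were given mostly by counts and means, with some markers named. The osteoblast, synovial and fibrous-layer, and erythroid markers were listed but are not described. Further members were given by array after their values were seen. Alternatives covered the run, rows, dim genes, variance model, array weights, 4 scalings, identical values, the threshold and each array left out.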

Additional observations from a re-analysis of the deposited data

How the results depend on the processing

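Over all genes, 309 were higher and 435 lower in knockout. With run as a block, array weights, quantile normalisation, cyclic loess or an adjusted p of 0.01 these counts were 0 and 0 (limma; at an unadjusted p under 0.05 there were 3829 genes with the block, 1917 with weights, 3761 after quantile, 3919 after loess and 3637 as reported). They were 179 and 266 with every row in the fit, 101 and 76 with arrays centred and scaled, and 654 and 976 at an adjusted p of 0.1. The higher genes were 55 among genes at or above the median gene and 52 above the level of the receptor genes. With 1 array left out, they ranged from 0 to 3930 higher and from 0 to 6069 lower. The 0 counts came without a wild-type array (2312 to 2458 genes at an unadjusted p under 0.05). Without a knockout array, the lone knockout array was taken to vary like wild type.

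Of the members, 1 fell and 0 rose. The fall was lost (0 members) with run as a block, both filters on dim genes, array weights, each of the 4 scalings, without genes of identical wild-type values, and at an adjusted p of 0.01. The dim filters leave Mmp19 out by construction, and its adjusted p of 0.0276 in the main limma fit is above 0.01. For the other settings the cause was not tested. At an adjusted p of 0.1, 3 were lower and 1 higher. With 1 array left out, 0 to 24 were lower and 0 to 9 higher. The members' median of -0.14 was -0.011 within run 2, -0.33 without genes of identical wild-type values, and -0.24 to -0.0065 with 1 array left out. In the related lists, 1 higher and 3 lower genes became 0 and 0 with the block, weights, quantile, loess, scaled values and an adjusted p of 0.01. The higher gene was also lost (0) without genes of identical wild-type values. With 1 array left out these counts ran from 0 to 17 higher and from 0 to 36 lower.

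Some single changes turned sign, and the cause was not tested. Quantile normalisation gave 0.0013 for Mmp13, 0.041 for Mmp7, 0.15 for Mmp11, 0.095 for Mmp23, 0.10 for Adamts7, 0.096 for Adamts16 and 0.011 for Ddr1. Cyclic loess gave 0.029 for Mmp7, 0.20 for Mmp11, 0.11 for Mmp23, 0.027 for Adamts4, 0.12 for Adamts7, 0.093 for Adamts16 and 0.035 for Ddr1. Centred and scaled values gave 0.033 for Mmp7, 0.25 for Mmp11, 0.14 for Mmp23, 0.054 for Adamts4, 0.13 for Adamts7, 0.11 for Adamts16 and 0.068 for Ddr1. Median centring gave 0.051 for Mmp11, 0.028 for Mmp23, 0.045 for Adamts7 and 0.026 for Adamts16. Array weights gave -0.016 for Mmp12, -0.025 for Mmp16 and 0.00092 for Mmp23, and Adamts3 was -0.0027 with its rows averaged and -0.068 in its dimmest row. With 1 array left out, changes ranged from -0.21 to 0.53 for Mmp12, -0.040 to 0.041 for Mmp16, -0.27 to 0.0012 for Mmp20, -1.07 to 0.029 for Adamts5, -0.20 to 0.15 for Adamts7, -1.05 to 0.017 for Adamts10, -0.027 to 0.15 for Adamts19, -0.98 to 0.017 for Timp2 and -0.075 to 0.48 for Timp3.

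No paired analysis was possible because the groups share no replicate number, so only array run was fitted as a block. With 2 knockout mice, 1 of which stands apart, and 14 members no brighter than receptor genes, differences of the size seen in most members could not be told from the spread between arrays.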
